A study of Sus scrofa with 2 samples.

Results

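The 5 miRNAs described here, miR-21-5p, miR-202-5p, miR-383-5p, miR-132-3p and miR-212-3p, are known from granulosa and other ovarian cells, and were measured in 2 small RNA libraries of pig oocytes. They were chosen by name, with earlier results of these data known, from 186 conserved miRNAs that were looked for. Of these 186, 155 had a read in either library. A read was counted for a miRNA when it was 18 to 26 nt long, held nt 2 to 18 of the mature form without a mismatch and began at most 2 nt upstream or 1 nt downstream of the annotated 5′ end. All 5 had reads in both libraries, and 2 of them, miR-21-5p and miR-132-3p, had 100 reads or more over both libraries. One library came from oocytes that were treated with Dicer siRNA at the germinal vesicle (GV) stage, before maturation, and are labelled as Dicer knockdown, and the other from control oocytes. Both kinds of oocyte matured in vitro for 42 h and are labelled as metaphase II (MII), the stage at which an oocyte awaits fertilisation. What the control oocytes received in place of the Dicer siRNA, how many oocytes were pooled and how the cumulus cells were removed are not given in the sources used here.

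Dicer is the ribonuclease that cuts the hairpin precursor of a miRNA and so sets one end of each arm. The mature strand is loaded into an Argonaute protein and finds its targets mainly through its seed, nt 2 to 8 counted from the 5′ end. A shifted 5′ end therefore changes the seed, whereas the 3′ end can be trimmed or extended without changing it. In the ovary an oocyte lies within layers of cumulus cells, a kind of granulosa cell, which reach it through fine projections. miR-21 is induced by luteinising hormone in rodent granulosa cells, where it promotes survival. miR-132 and miR-212, made from 1 gene locus and sharing a seed, are induced by the same hormone in mouse granulosa cells. miR-202 is known for its high level in gonads, and miR-383 from granulosa cells and testis.

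The most abundant sequence of each miRNA is printed here as it stands in the deposited tables, because the ends of these reads are what the results turn on. Capitals mark the seed.

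miR-21-5p, 23 nt: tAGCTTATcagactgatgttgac
miR-202-5p, 20 nt: tTCCTATGcatatacttctt
miR-383-5p, 22 nt: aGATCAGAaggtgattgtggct
miR-132-3p, 23 nt: tAACAGTCtacagccatggtcgt
miR-212-3p, 21 nt: tAACAGTCtccagtcacggcc

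By seed, miR-132-3p and miR-212-3p formed 1 group and the other 3 miRNAs stood alone. Over nt 2 to 18 the pair had the same base at 14 of 17 positions, so no read could be counted for both. Of the other conserved miRNAs looked for, miR-590-5p had the seed of miR-21-5p.

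The knockdown library held 11982925 reads and the control library 11836160 reads, of which 6.63% and 6.55% were reads of conserved miRNAs. With 1 library per condition there is no spread between samples and no test between conditions, so each comparison is between these libraries. Levels are in RPM, reads of a miRNA per 1000000 reads of the library. Each interval is at 95% and reflects counting error alone, taking reads as independent. Reads copied by PCR, with no molecular identifier, are not independent, so the intervals can be too narrow. The Dicer transcript itself cannot be read from small RNA and was not analysed here.

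miR-21-5p made up nearly all reads of the 5 miRNAs and was moderately higher in the knockdown library, whereas the other 4 were scarce and went in both directions. miR-21-5p had 7177 reads in the knockdown library and 5476 in the control library. Its level was 598.9 RPM (585.2 to 613) in the knockdown library and 462.7 RPM (450.5 to 475.1) in the control library, and the intervals did not overlap. The ratio of knockdown to control was 1.295 (1.25 to 1.341). It ranked 9 among the conserved miRNAs of the knockdown library and 8 among those of the control library. It held 98.5% and 97.9% of the reads of the 5 miRNAs in the knockdown and control library, but 0.903% and 0.706% of all conserved miRNA reads.

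**Figure D1:**
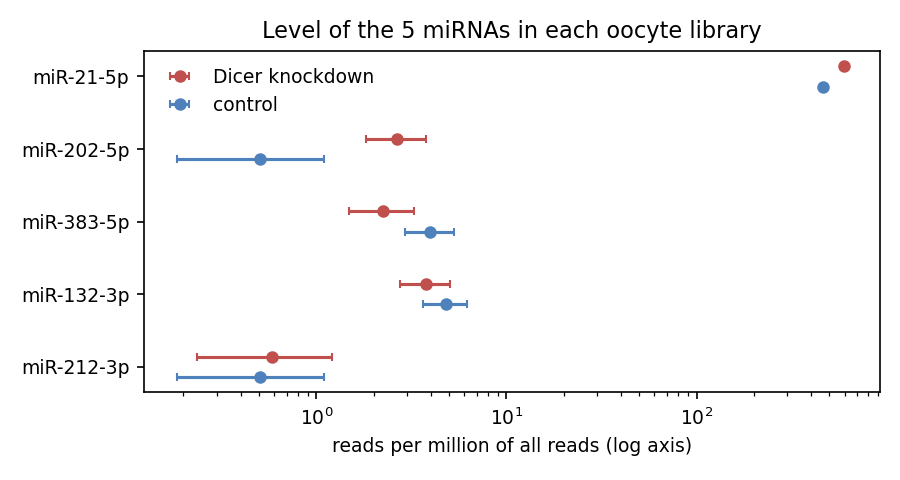
Level of each of the 5 miRNAs in RPM on a log axis, with the knockdown library above the control library; points are single libraries and bars exact Poisson 95% intervals. miR-21-5p lies near 598.9 and 462.7 RPM, and the other 4 lie between 0.507 and 4.82 RPM.

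miR-202-5p differed most between the libraries. It had 32 reads in the knockdown library and 6 in the control library, or 2.67 RPM (1.83 to 3.77) and 0.507 RPM (0.186 to 1.10). The intervals did not overlap, and the ratio was 5.27 (2.17 to 15.4). The lower end of that interval is set by only 6 control reads of 3 distinct sequences.

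miR-383-5p was the lowest of the 5 in the knockdown library relative to the control library. It had 27 reads, or 2.25 RPM (1.49 to 3.28), in the knockdown library, against 47 reads, or 3.97 RPM (2.92 to 5.28), in the control library. The 2 intervals overlapped, while the interval of the ratio, 0.567 (0.340 to 0.930), did not reach 1.

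For the pair with a shared seed no difference was detectable at this depth. miR-132-3p had 45 knockdown and 57 control reads, or 3.76 RPM (2.74 to 5.03) and 4.82 RPM (3.65 to 6.24), a ratio of 0.780 (0.516 to 1.17). miR-212-3p had 7 knockdown and 6 control reads, or 0.584 RPM (0.235 to 1.20) and 0.507 RPM (0.186 to 1.10), a ratio of 1.15 (0.332 to 4.15). miR-212-3p thus took 13.5% (exact binomial interval 5.59 to 25.8%) of the reads of the pair in the knockdown library and 9.52% (3.58 to 19.6%) in the control library. Both members of the pair had overlapping intervals between the libraries.

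In order of level, miR-21-5p came first in both libraries, far above the next. In the knockdown library miR-132-3p, miR-202-5p and miR-383-5p followed with overlapping intervals, and miR-212-3p was lowest, with an interval below those of the other 4. In the control library miR-132-3p and miR-383-5p followed with overlapping intervals, and miR-202-5p and miR-212-3p shared the lowest place with 6 reads each. The place of miR-202-5p in this order was therefore the main difference between the libraries.

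A ratio of at least 2 in the knockdown library was common among conserved miRNAs, so the members' ratios have to be read against that background. There were 118 conserved miRNAs with 10 reads or more over both libraries. Of these, 27.1% reached a ratio of 2 (knockdown over control) and 1.69% a ratio of 0.5 or less, with 0.5 reads added to each count. Of the 5 miRNAs described here, 1 was past the upper of these limits and 0 past the lower. Their median log2 ratio was 0.19, against 0.29 over all 118. With a minimum of 100 reads, 23.7% of 76 miRNAs were past the upper limit and 1.32% past the lower, and neither miR-21-5p nor miR-132-3p was among them. Of the 118 miRNAs, 64 had a lower ratio than miR-21-5p, 106 a lower ratio than miR-202-5p and 4 a lower ratio than miR-383-5p.

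**Figure D2:**
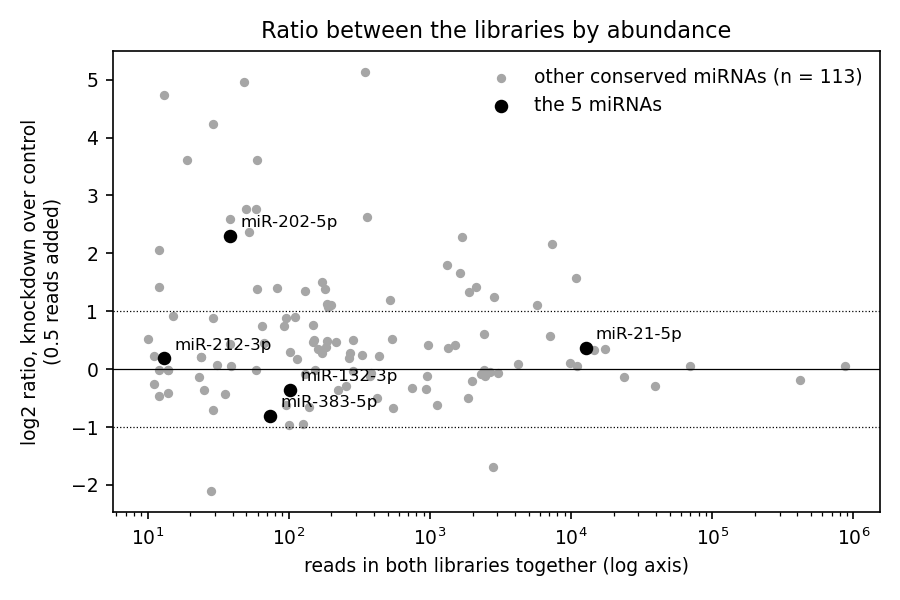
Log2 ratio of knockdown to control against the reads of both libraries together (log axis) for conserved miRNAs with at least 10 reads; black points are the 5 miRNAs, grey points the other 113, and dotted lines mark 2-fold. Only miR-202-5p of the 5 lies above the upper dotted line, and miR-383-5p lies just inside the lower one.

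Measured against other miRNAs of the same library, the direction for miR-21-5p depended on the comparator. Among the 76 conserved miRNAs with 100 reads or more, 44 had a lower ratio of knockdown to control than miR-21-5p and 31 a higher one. There were 16.1 reads of miR-21-5p per 1000 reads of miR-10b-5p in the knockdown library and 12.9 in the control library, and 36.65 and 24.97 per 1000 of miR-182-5p. Per 1000 reads of miR-148a-3p there were 202.7 and 162.9, and per 1000 of let-7a-5p, counted together with let-7c-5p, 1407 and 1163. Per 1000 reads of miR-423-5p, chosen after its values were seen, the order turned, with 875.9 in the knockdown library and 2023 in the control library. The other 4 miRNAs together, with 111 knockdown and 116 control reads, had a ratio of 0.945 (0.722 to 1.24), so the summed ratio of all 5, 1.29 (1.24 to 1.33), was that of miR-21-5p.

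The 5′ end of miR-21-5p was almost fixed. In the knockdown library 99.7% (exact binomial interval 99.5 to 99.8%) of its reads began at the annotated base, and in the control library 99.8% (99.6 to 99.9%). Another 16 knockdown and 6 control reads began 1 nt upstream, all with G as the extra base, and 9 and 5 reads began 1 nt downstream. Among the other conserved miRNAs with at least 100 reads in the library, the median share at the annotated 5′ end was 99.5% over 59 in the knockdown library and 99.9% over 50 in the control library.

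The 5′ ends of miR-202-5p, miR-383-5p and miR-132-3p were less uniform, on few reads. Of the miR-202-5p reads, 26 of 32 in the knockdown library and 5 of 6 in the control library began at the annotated base, or 81.3% (63.6 to 92.8%) and 83.3% (35.9 to 99.6%). The remaining reads carried 1 extra C in the knockdown library and 2 in the control library. miR-383-5p began at the annotated base in 88.9% (70.8 to 97.7%) of knockdown and 91.5% (79.6 to 97.6%) of control reads, and its other 3 and 4 reads all carried 1 extra C. An extra base at the 5′ end moves the seed by 1 nt, as these forms show, with the seed of the annotated form in capitals.

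miR-202-5p with 1 extra base, 21 nt: ctTCCTATGcatatacttctt
miR-383-5p with 1 extra base, 23 nt: caGATCAGAaggtgattgtggct

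miR-132-3p went the other way. Its 5 knockdown and 7 control reads off the annotated start all lacked the first base, or 11.1% (3.71 to 24.05%) and 12.3% (5.08 to 23.7%) of its reads. All reads of miR-212-3p, 7 and 6, began at the annotated base. Of the 103 other conserved miRNAs with at least 10 reads in the knockdown library, 7 had a smaller share at the annotated 5′ end than miR-202-5p, and 11 a smaller share than miR-383-5p or miR-132-3p. In no member did the intervals of this share separate the 2 libraries.

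The 3′ ends differed far more between the miRNAs, and miR-21-5p was mostly longer than its annotated 22 nt. Reads that ended past the annotated last base made up 90.2% (89.5 to 90.9%) in the knockdown library and 91.3% (90.5 to 92.0%) in the control library. The median of this share over the other conserved miRNAs with at least 100 reads was 15.7% in the knockdown library and 17.5% in the control library, and 53 of 59 and 46 of 50 of them lay below miR-21-5p. Reads of exactly the annotated end were 9.04% and 7.98%, and shorter ones 0.752% and 0.712%.

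A handful of forms held nearly all miR-21-5p reads, and they differ after nt 22 only. The sequence shown first is the 23-nt form above with 1 base added.

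miR-21-5p, 24 nt ending in T: tAGCTTATcagactgatgttgact
miR-21-5p, 22 nt, the annotated form: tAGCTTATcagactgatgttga
miR-21-5p, 24 nt ending in C: tAGCTTATcagactgatgttgacc
miR-21-5p, 24 nt ending in A: tAGCTTATcagactgatgttgaca

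The 23-nt form had 3667 knockdown and 3124 control reads, and its share was smaller in the knockdown library, at 51.1% (49.9 to 52.3%) against 57.0% (55.7 to 58.4%) in the control library. The 24-nt form ending in T had 2263 and 1541 reads, with a larger share in the knockdown library, 31.5% (30.5 to 32.6%) against 28.1% (27.0 to 29.4%). The 24-nt form ending in C had 338 and 196 reads, again with a larger share in the knockdown library, 4.71% (4.23 to 5.23%) against 3.58% (3.10 to 4.11%). The annotated form had 640 and 436 reads and the 24-nt form ending in A 154 and 103, with overlapping intervals of their shares.

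The ratio between the libraries therefore depended on the form of miR-21-5p that was counted. The 23-nt form had a ratio of 1.16 (1.11 to 1.22). The ratio was 1.45 (1.36 to 1.55) for the 24-nt form ending in T, 1.45 (1.28 to 1.64) for the annotated form and 1.70 (1.42 to 2.04) for the 24-nt form ending in C. These 3 intervals lay above that of the 23-nt form. The 24-nt form ending in A, at 1.48 (1.14 to 1.91), had an interval that overlapped it. For comparison, there were 13658 distinct sequences with 100 reads or more over both libraries, of which 5.65% reached a ratio of 2 and 5.64% a ratio of 0.5 or less. None of the 5 miR-21-5p forms named here was among either.

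**Figure D3:**
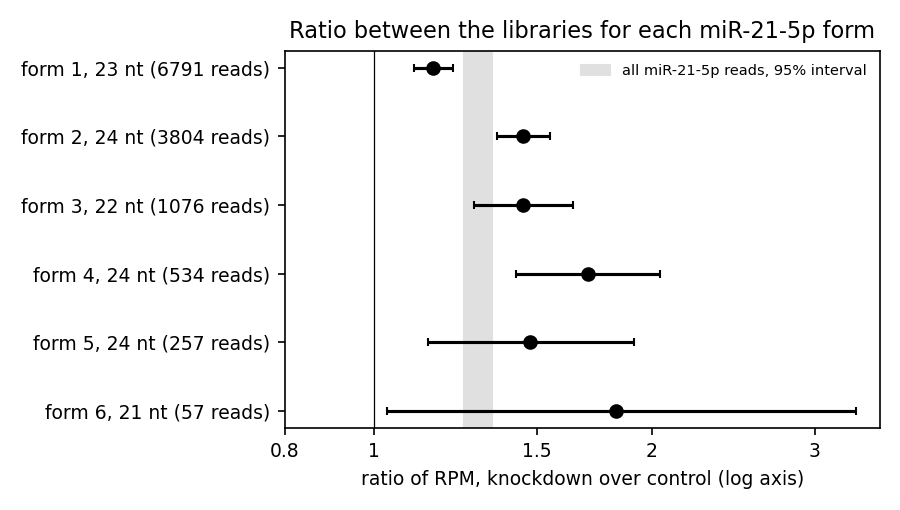
Ratio of knockdown to control RPM (log axis) for each miR-21-5p form with 50 reads or more over both libraries, numbered by abundance, with exact 95% intervals; the grey band is the interval of all miR-21-5p reads. The 23-nt form, at 1.16, lies left of the band, and the other 5 forms lie between 1.45 and 1.83.

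A change of the most abundant form by this much was not rare among the other miRNAs. Its share of the miR-21-5p reads was lower by 5.95 percentage points in the knockdown library (difference of knockdown minus control, -5.95). Over the 49 other conserved miRNAs with at least 100 reads in each library the median absolute difference was 4.34 points, and 18 of them differed by more than miR-21-5p. On average miR-21-5p reads ended 1.28 nt past the annotated end in the knockdown library and 1.24 nt past it in the control library.

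The base at nt 24 of miR-21-5p was mainly T in both libraries. Among reads that began at nt 1, held C at nt 23 and ended at nt 24, T was found in 82.0% (80.5 to 83.4%) of 2764 knockdown reads and in 83.4% (81.6 to 85.0%) of 1853 control reads. C followed with 12.3% and 10.6%, then A with 5.61% in both, and G had 2 and 7 reads. The 3′ adapter of the library also starts with T, so the point at which it was trimmed bears on this base. Reads of 41 to 44 nt that still held the adapter show where the RNA ended before trimming. Of the 12 such miR-21-5p reads in the knockdown library 5 ended at nt 23 and 6 at nt 24 with T, and of the 10 in the control library 5 ended at nt 23, 2 at nt 24 with T and 1 at nt 24 with C. Some untrimmed reads thus held T at nt 24 before the adapter. In 1 knockdown read of 29 nt the 23-nt form was followed by the start of the adapter. The T at nt 24 of that read matched the first adapter base. How much of the T at nt 24 in the counted reads came from the adapter was not tested. A further 3 knockdown reads of 27 nt, beyond the length window, ran on past a T at nt 24.

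miR-21-5p, 27 nt: tAGCTTATcagactgatgttgactgtt

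miR-202-5p was shorter than its annotated 22 nt. All 32 knockdown reads and 5 of the 6 control reads ended before the annotated last base, or 100% (89.1 to 100%) and 83.3% (35.9 to 99.6%). There were 103 other conserved miRNAs with at least 10 reads in the knockdown library. Of these, 100 had a smaller share of such reads, and the rest also had 100%. The median over the 103 was 30.9%. The 20-nt form had 12 knockdown and 4 control reads. The 21-nt form, shown here because it accounts for much of the difference between the libraries, had 10 and 0 reads. With 3 reads in place of the 0 it was 3.29-fold higher in knockdown, and the exact lower limit of its ratio was 2.21.

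miR-202-5p, 21 nt: tTCCTATGcatatacttcttt

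miR-383-5p ended mostly at its annotated last base. Reads that ended at the annotated last base made up 96.3% (81.03 to 99.9%) in the knockdown library and 93.6% (82.5 to 98.7%) in the control library, and 0 of 27 and 0 of 47 were shorter. Taken as 3 reads, a count of 0 allows a share of up to 11.1% and 6.38%, and the exact upper limits are 12.8% and 7.55%. Of the other conserved miRNAs with at least 10 reads, 2 of 103 in the knockdown library and 1 of 92 in the control library had a larger share at the annotated 3′ end. The full annotated form alone had 23 and 40 reads, a ratio of 0.568 (0.325 to 0.972).

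miR-132-3p mostly carried 1 base more than its annotated 22 nt. Reads past the annotated end were 62.2% (46.5 to 76.2%) in the knockdown library and 71.9% (58.5 to 83.0%) in the control library. The 23-nt form ending in T, printed above, had 22 and 34 reads, a ratio of 0.639 (0.356 to 1.13), and the annotated 22-nt form had 13 and 12. Both forms had overlapping intervals between the libraries in their shares.

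miR-212-3p, with the same seed, had no read that ended 1 nt past its annotated end, among only 7 knockdown and 6 control reads. Its annotated 21-nt form had 4 knockdown and 4 control reads. The 3 other knockdown reads were 1 sequence of 23 nt. The 2 other control reads were 1 sequence of 21 nt with T in place of the last C. On so few reads neither minor form could be told apart between the libraries. The exact lower limit of the ratio was 0.408 for the 23-nt form, and the upper limit was 5.26 for the 21-nt form ending in T.

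miR-212-3p, 23 nt, 3 knockdown and 0 control reads: tAACAGTCtccagtcacggccac
miR-212-3p, 21 nt, 0 knockdown and 2 control reads: tAACAGTCtccagtcacggct

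**Figure D4:**
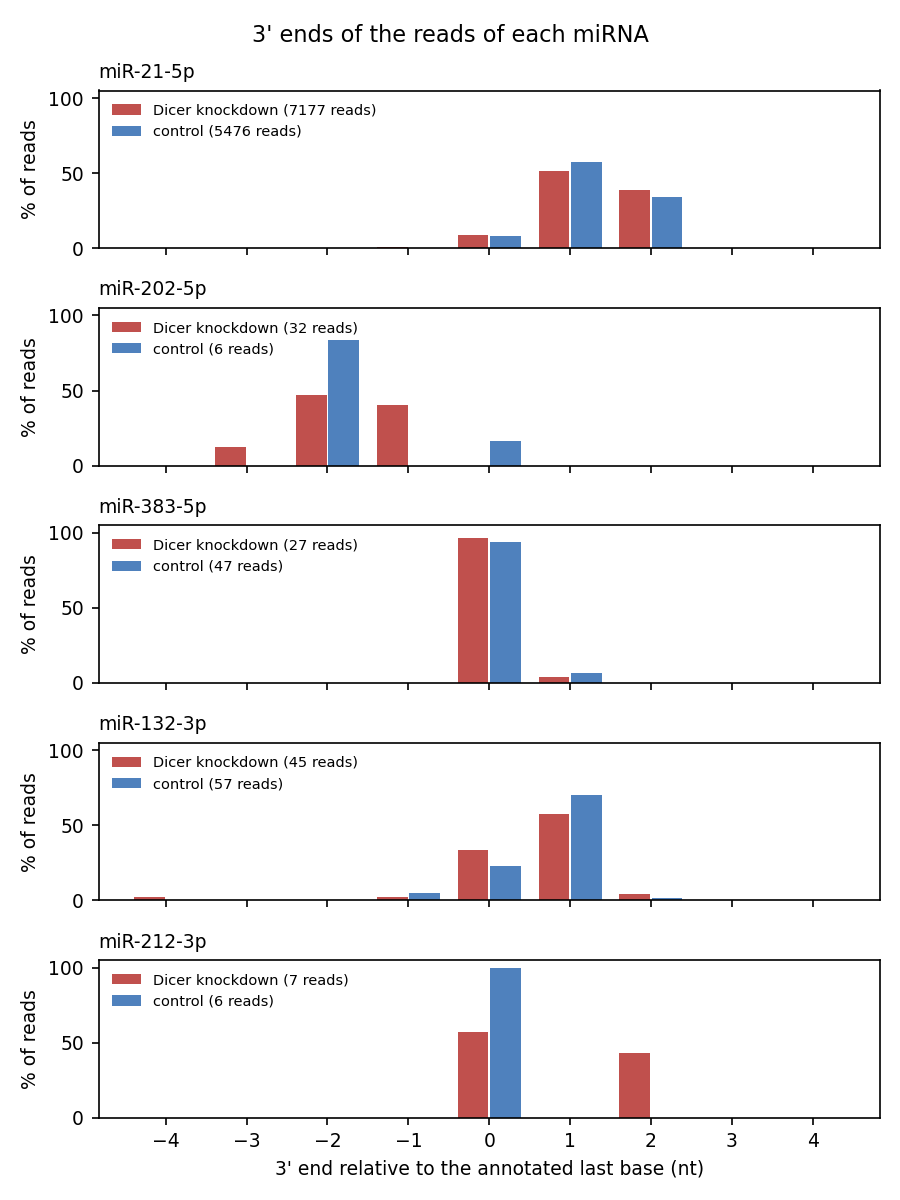
Share of the reads of each miRNA (percent) by the position of their 3′ end relative to the annotated last base, with knockdown bars left of control bars; the number of reads behind each set of bars stands in the panel. miR-21-5p peaks at 1 nt past the annotated end in both libraries, miR-383-5p at the annotated end, and miR-202-5p lies before it.

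The other arm of each hairpin, which the choice of reads did not use, was rare or had no reads. miR-21-3p had 9 knockdown reads and 0 control reads, or 0.125% (0.0573 to 0.238%) of the reads of both arms in the knockdown library, while 0 of 5476 in the control library, taken as 3 reads, allows a share of up to 0.0548%, with an exact upper limit of 0.0673%. With 3 reads in place of the 0, miR-21-3p was 2.96-fold higher in knockdown, and the exact lower limit of its ratio was 1.95. miR-132-5p had 3 and 0 reads, and miR-202-3p and miR-383-3p had 0 in both libraries. miR-212-5p was the exception, with 4 knockdown and 5 control reads, or 36.4% (10.9 to 69.2%) and 45.5% (16.7 to 76.6%) of the reads of both arms. The reads of miR-21-3p were 2 sequences with the annotated 5′ end.

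miR-21-3p, 21 nt, 6 knockdown and 0 control reads: cAACACCAgtcgatgggctgt
miR-21-3p, 22 nt, 3 knockdown and 0 control reads: cAACACCAgtcgatgggctgtc

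Since an oocyte sample can hold cumulus cells, stroma or blood, miRNAs of other lists were counted in the same way. Of 10 further miRNAs known from granulosa cells, 5 had 10 reads or more over both libraries, and 1 of these, miR-378a-3p, reached a ratio of 2, against 27.1% of all conserved miRNAs. The list summed to 163.5 RPM (156.3 to 170.9) in the knockdown library and 135.4 RPM (128.9 to 142.2) in the control library, a ratio of 1.21 (1.13 to 1.29). miR-224-5p and miR-503-5p, both described in granulosa cells, had 0 reads in both libraries. miR-424-5p, miR-450a-5p and miR-542-3p, from the same X-linked cluster as miR-503, had 2, 1 and 1 knockdown reads and 4, 1 and 2 control reads. miR-450b-5p of that cluster, not on the list, had 10 and 5 reads.

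The 5 detected miRNAs of that list are also expressed in many tissues outside the ovary. miR-181a-5p stood at 71.8 RPM (67.1 to 76.8) in the knockdown library and 54.1 RPM (49.96 to 58.4) in the control library. miR-378a-3p stood at 25.9 RPM (23.1 to 28.9) and 4.14 RPM (3.06 to 5.47), whereas miR-146a-5p was lower in the knockdown library, at 17.9 RPM (15.5 to 20.4) against 28.4 RPM (25.4 to 31.6) in the control library. miR-31-5p, at 38.5 RPM (35.0 to 42.1) and 41.7 RPM (38.1 to 45.6), had overlapping intervals. miR-34c-5p was at 9.10 RPM (7.47 to 10.97) and 6.50 RPM (5.13 to 8.13). The list thus went in both directions, like the 5 miRNAs themselves.

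Among the lists, that of stroma and vessel differed most between the libraries. It summed to 127.8 RPM (121.4 to 134.3) in the knockdown library and 29.0 RPM (25.99 to 32.2) in the control library, a ratio of 4.41 (3.92 to 4.97), with 3 of its 7 miRNAs at 10 reads or more. Of these 3, 2 reached a ratio of 2, against 27.1% of all conserved miRNAs with 10 reads or more. miR-143-3p, abundant in smooth muscle and stroma, held 1411 of its 1531 knockdown reads and 286 of its 343 control reads, and was at 117.8 and 24.2 RPM. miR-199a-3p, also of stroma, had 93 and 54 reads, a ratio of 1.70 (1.20 to 2.43), and the endothelial miR-126-5p 18 and 1 reads, a ratio of 17.8 (2.81 to 740.8). miR-214-3p had 0 in both, miR-145-5p 4 and 0, miR-199a-5p 2 and 0 and miR-126-3p 3 and 2. The blood list summed to 51.7 RPM (47.7 to 56.0) and 35.8 RPM (32.5 to 39.4), a ratio of 1.44 (1.27 to 1.64). Of its 7 miRNAs, 4 had 10 reads or more, and 2 of these reached a ratio of 2, against the same 27.1%. Most of the blood list was miR-486-5p, a miRNA of blood and muscle, with 559 knockdown and 413 control reads. miR-142-5p, of blood cells, had 47 and 1 reads, a ratio of 46.4 (7.94 to 1872), and miR-150-5p, of lymphocytes, 9 and 3. miR-451a, the erythroid miRNA, had 5 and 7 reads, and miR-144-3p, miR-223-3p and miR-142-3p had 0 in both libraries. The 6 widely expressed miRNAs summed to 5181 RPM (5140 to 5221) and 5008 RPM (4967 to 5048), a ratio of 1.03 (1.02 to 1.05).

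**Figure D5:**
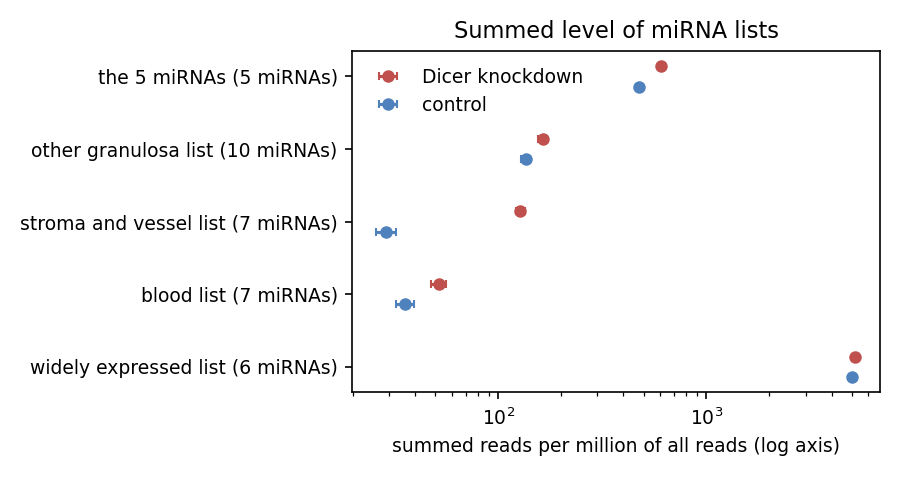
Summed level of each list in RPM on a log axis, with the knockdown library above the control library and exact Poisson 95% intervals. The stroma and vessel list, at 127.8 and 29.0 RPM, is the furthest apart, and the widely expressed list, at 5181 and 5008 RPM, the closest.

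On carry-over of cumulus cells the end forms give a limited account. The ends of these miRNAs in cumulus or granulosa cells were not measured by the 2 libraries, so no end form can be assigned to one cell type. In both libraries miR-21-5p had the same 5 leading forms in the same order, and the intervals of its share at the annotated 5′ end and of its share past the annotated 3′ end overlapped. The shares of 3 of those 5 forms, the 23-nt form and the 24-nt forms ending in T and in C, had separate intervals. Of the further granulosa list, miR-224-5p and miR-503-5p were at 0 in both libraries, while 5 of the 10 had 10 reads or more and the list summed to 1959 knockdown and 1603 control reads. Fewer cells of a type and less RNA per cell cannot be told apart in such a sample. The part of cumulus, stromal or blood cells in the levels of the 5 miRNAs was not tested.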

How the data were processed

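Small RNA libraries were made by adapter ligation, reverse transcription and PCR from total RNA of oocytes for Illumina sequencing, per the labels' protocols. For each library the authors deposited a table of distinct sequences with their length (18 to 44 nt) and raw read count, with no scaling. The submitters' processing notes name Bowtie2. Its version, the trimming and the build are not given in the sources used here. No genome or hairpin was used, so no coordinates are given, and added 3′ bases were not sorted into encoded and added ones.

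The members and lists were chosen with earlier results of these data known. Reads were matched to nt 2 to 18 of 197 conserved mature forms written from background knowledge, 6 of which shared that stretch with another and were counted with it, leaving 186 miRNAs and the other arms of the 5 hairpins. miR-212 was taken as its 3p arm. Annotated lengths come from the same source, and all printed sequences are reads in the deposited tables. Other arms were planned from hairpins and were matched to conserved forms instead.

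Named items were the 5 miRNAs, the other arms, the most abundant forms of each, and list members with at least 10 reads, except that the widely expressed list is given mainly as a sum. The 27-nt and 29-nt miR-21-5p reads, the 21-nt and upstream forms, the forms of miR-212-3p and the list members under 10 reads include some chosen after their values were seen. RPM values are counts of the deposited tables scaled to all reads of the library, at a depth of 11982925 (knockdown) and 11836160 (control) reads. Shares have Clopper-Pearson, counts Poisson and ratios conditional exact intervals, at 95%. Where a count was 0, 3 reads stood in as the floor (0.250 RPM for the knockdown, 0.253 RPM for the control). Having 1 library per group, the comparison has no p-value. On simulated data all 1500 planted end forms were read correctly, and for 13658 sequences 199 of 200 changed 4-fold and 1 unchanged were past 2-fold, with Poisson error alone. Alternatives covered the reads that levels are relative to, the match, rare sequences, length windows and read minimums. Python 3.11.15, numpy 2.4.6, pandas 2.3.3, scipy 1.17.1 and matplotlib 3.10.9 were used.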

Additional observations from a re-analysis of the deposited data

Results flagged for a closer look

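miR-21-3p, the other arm of the miR-21 hairpin, had 9 reads in the knockdown library and 0 in the control library, a signal outside the reads counted for the 5 miRNAs. Its 9 reads were 2 sequences, of 6 and 3 reads.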

How the results depend on the processing

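Of 188 recalculated values, 175 stayed within the interval of the value reported or, for counts, within 1.5 times of it. The other 13 moved beyond it. Direction was checked only for ratios whose reported interval did not reach 1, and 0 of these turned. Shares, counts and the remaining ratios could not be labelled as turned. Relative to reads of 21 to 23 nt, the ratio was 1.37 for miR-21-5p and 1.36 for the 5 miRNAs together. With single reads left out, miR-202-5p in the control library had 100% of its reads at the annotated 5′ end, 100% shorter at the 3′ end and 0% at the annotated 3′ end. In the knockdown library miR-132-3p then had 0% shorter reads, and miR-383-5p 100% at the annotated 3′ end and 0% longer. The miR-202-5p ratio ran from 4.61, with nt 2 to 20 matched or 20 to 24 nt reads, to 7.90 with single reads left out. The count of conserved miRNAs at least 2-fold higher, 18 with at least 100 reads, was 32 with at least 10 and 28 with at least 20, and that of lower ones 1, 2 and 2. The widely expressed list had a ratio of 1.02 relative to conserved miRNA reads. Allowing 1 mismatch added 50 knockdown and 22 control reads to miR-21-5p, or 0.692% and 0.400%. No paired analysis was possible because there is 1 library per group. Depth limits miR-202-5p and miR-212-3p most, with 6 control reads each.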
